A study of Mus musculus with 45 samples.

Results

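The Krüppel-like factors described here are Klf2, Klf3, Klf4, Klf5, Klf6, Klf7, Klf9, Klf10, Klf13 and Klf16, 10 of the 13233 genes that the arrays name. Members were found by symbol: a probe set counted when the platform annotation gave it exactly 1 symbol and that symbol was a member's. This gave 32 of the 31451 probe sets. For each gene the probe set with the highest mean over all 45 arrays is described (10 probe sets), and the other 22 are given separately. The cells were NIH-3T3, an immortal line of mouse embryonic fibroblasts, grown in medium with 5% newborn calf serum and measured on Affymetrix arrays in 11 groups. Total RNA was taken before the start (the group called before) and after 1 h or 2 h in fresh medium with 5 µg/ml actinomycin D, a drug that blocks transcription. The other groups received fresh medium with 4-thiouridine (4sU), a nucleoside that cells build into RNA as it is made, so that new RNA can be pulled apart from old. New RNA was measured after 15 min and 30 min of 500 µM 4sU and after 60 min of 200 µM, total RNA of labelled cells after 30 min and 60 min, and the unlabelled, pre-existing RNA after 60 min. A separate set of new and total RNA at 60 min carries the mark 2F, and several titles carry the word mock. The labels explain neither. Each group had 3 arrays, apart from new and total RNA at 30 min with 9 each. No treatment other than the fresh medium, 4sU or the drug is named, all groups share the cell line, and no group received fresh medium alone, so the medium change and 4sU cannot be told apart. No label says that the arrays of a group came from separate cultures, so each p-value measures array-to-array spread alone, and that spread may be technical.

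Krüppel-like factors are transcription factors that end in a row of zinc fingers and bind CACCC and GC-rich boxes, often the same boxes as the related SP factors. They differ in the part before the fingers: Klf2, Klf4, Klf5, Klf6 and Klf7 mostly activate, Klf3 represses through the corepressor CtBP, and Klf9, Klf10, Klf13 and Klf16 recruit the Sin3 corepressor. Many family members are known as early-response genes whose messages appear soon after serum or growth factors reach resting fibroblasts. Klf2 maintains quiescence in endothelial and T cells, Klf4 is one of the factors that reprogram fibroblasts to pluripotency, Klf5 drives growth of gut crypt and smooth muscle cells, Klf6 is a widely expressed growth suppressor, and Klf7 acts in neurons and fat cells. Klf3 is the basic Krüppel-like factor of red cells and fat. Klf9 is induced by glucocorticoid and thyroid hormone, Klf10 is the TGF-beta inducible early gene, Klf13 binds the Ccl5 promoter in T cells, and Klf16 was described as a regulator of dopamine receptor genes.

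Promoters were looked up in RefSeq (mouse GRCm38.p6, the 250 bases before the start of each gene), which matched 7 of the 10 members. Those of Klf5, Klf10 and Klf16 are named only. The 4 below are shown because their genes bracket the behaviours described here. In total RNA of labelled cells, Klf2 was the member called at 30 min and Klf3 was not called at any time. Klf6 had the largest excess in new RNA at 30 min, and Klf9 climbed with label time. All lie on the plus strand and are written 5′ to 3′, in lower case, with 1 searched motif in capitals, on either strand: the MEF2 element in Klf2, GGGCGG (a GC box) in Klf3, CCAAT or its reverse ATTGG in Klf6, and TGACG (the core of a cAMP response element) in Klf9.
Klf2, chr8:72318812-72319061: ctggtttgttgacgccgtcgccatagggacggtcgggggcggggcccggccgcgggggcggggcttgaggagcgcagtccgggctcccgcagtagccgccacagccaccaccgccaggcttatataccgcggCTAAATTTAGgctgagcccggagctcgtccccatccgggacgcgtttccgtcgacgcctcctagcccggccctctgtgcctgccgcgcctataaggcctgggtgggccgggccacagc
Klf3, chr5:64803271-64803520: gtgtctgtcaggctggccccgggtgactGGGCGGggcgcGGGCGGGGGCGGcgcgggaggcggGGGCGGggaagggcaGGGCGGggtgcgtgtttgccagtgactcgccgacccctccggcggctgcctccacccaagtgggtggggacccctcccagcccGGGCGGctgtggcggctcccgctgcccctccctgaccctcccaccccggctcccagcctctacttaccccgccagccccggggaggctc
Klf6, chr13:5861239-5861488: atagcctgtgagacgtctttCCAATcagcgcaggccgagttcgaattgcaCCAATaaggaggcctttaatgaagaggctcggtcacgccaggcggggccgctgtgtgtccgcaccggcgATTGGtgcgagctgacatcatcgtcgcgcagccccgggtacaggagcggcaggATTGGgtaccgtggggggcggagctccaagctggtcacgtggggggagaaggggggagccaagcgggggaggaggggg
Klf9, chr19:23140976-23141225: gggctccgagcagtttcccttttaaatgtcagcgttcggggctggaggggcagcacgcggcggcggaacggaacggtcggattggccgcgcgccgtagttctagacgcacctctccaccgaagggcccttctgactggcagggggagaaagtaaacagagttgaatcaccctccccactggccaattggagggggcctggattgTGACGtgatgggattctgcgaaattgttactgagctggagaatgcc
The MEF2 element lay in 1 of the 7 promoters (Klf2) and in 0.508% of all 32851 promoters of that length. GGGCGG lay in 6 of 7 (32.7% of all), TGACG in 4 (17.8%), CCAAT in 3 (33.9%), CACGTG in 2 (6.02%) and CACCC, the family's own box, in 5 (52.0%). The serum-response CArG element lay in 0 of 7 and in 1.47% of all. A match describes letters only, and its absence says nothing about a factor.

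In 7 of the 11 groups each array had a median correlation of 0.980 to 0.996 with the others of its group, over probe sets. The medians were lower for new RNA at 60 min (0.861 to 0.922), total RNA at 60 min (0.904 to 0.947), total RNA at 30 min (0.946 to 0.969) and new RNA at 30 min (0.920 to 0.985). The 9 arrays at 30 min fell into 3 sets by number (1, 4 and 7, then 2, 5 and 8, then 3, 6 and 9), which the labels do not explain. In total RNA, 9 of 9 arrays had their 2 nearest arrays in their own set, and in new RNA 8 of 9. The 9 arrays may therefore be fewer independent samples, and p-values over 9 arrays may be too small. Results at 30 min are also given with each set averaged to 1 sample. All 9 fibroblast markers measured lay above an intensity of 32 before the start, and 0 of the 7 epithelial, leukocyte, endothelial and muscle markers measured did.

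**Figure D1:**
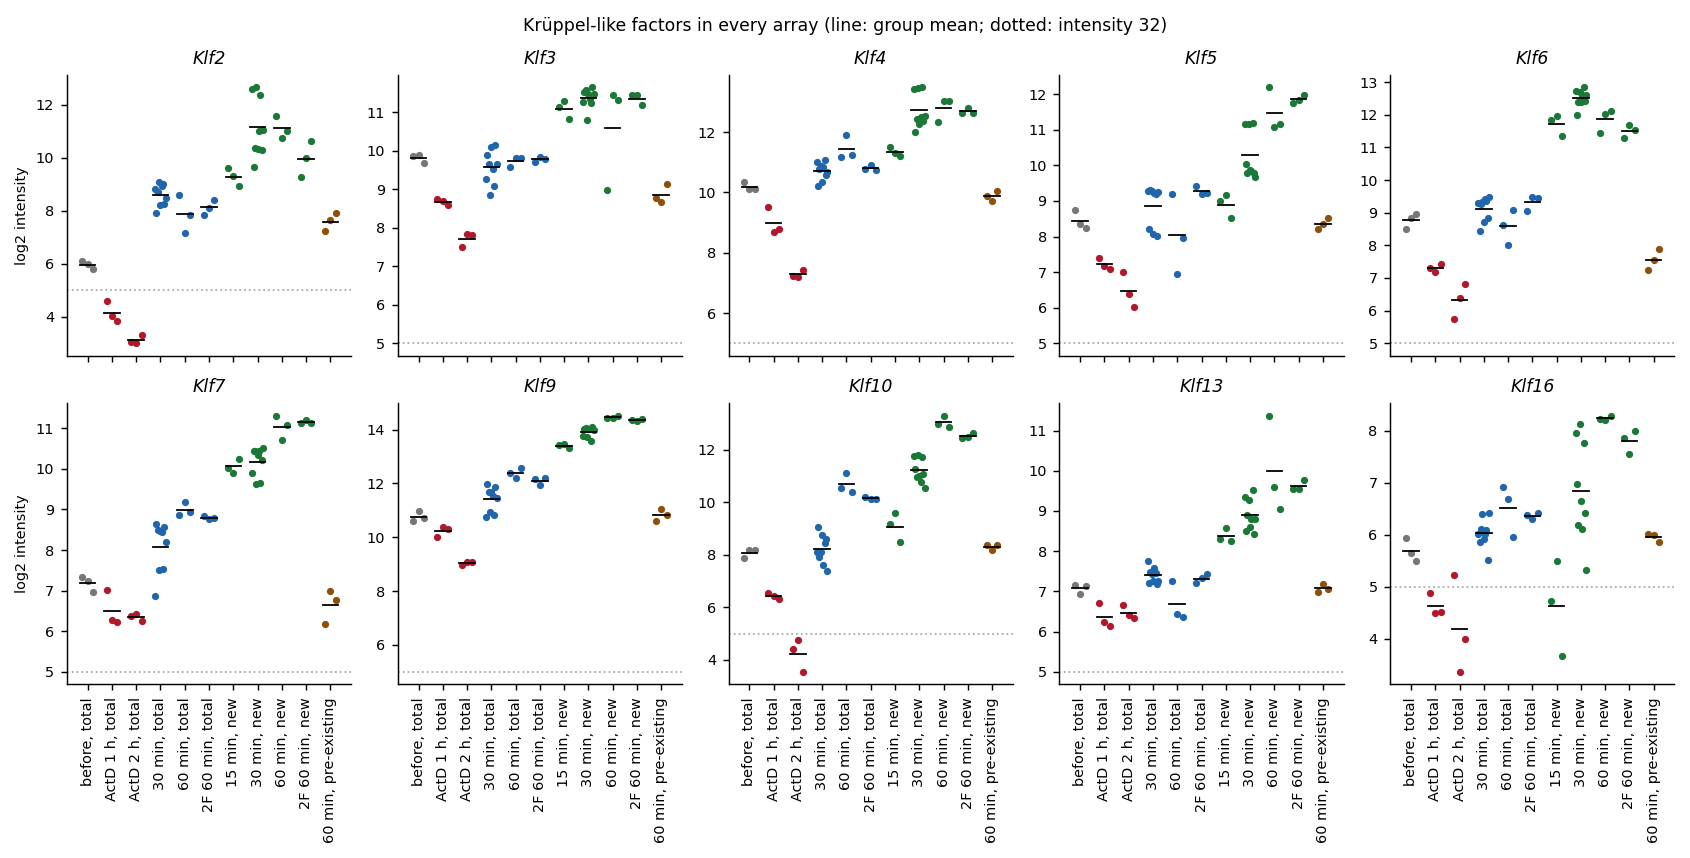
Log2 intensity (y axis) of the 10 Krüppel-like factors on each of the 45 arrays, by group (x axis). Each point is 1 array and each bar a group mean, and the dotted line marks log2 5, an intensity of 32. New RNA lies highest and actinomycin D lowest for most members, and Klf10 drops below the line after 2 h of the drug.

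After 4sU in fresh medium a part of the family had risen in total RNA. Klf2 had risen 6.26-fold by 30 min, when no other member was called, and was still raised at 60 min. By 60 min Klf10 had risen 6.14-fold, Klf7 3.51-fold, Klf9 3.07-fold and Klf4 2.37-fold. Klf3, Klf5, Klf6, Klf13 and Klf16 were not called at any of the 3 times. Called means a Benjamini-Hochberg adjusted p (limma) below 0.05 over all probe sets tested and at least a 2-fold change. The 3 comparisons share the arrays taken before and were fitted together, so each p-value draws on the spread of all these groups. At 30 min 1 of 10 members was called higher against 0.544% of all probe sets tested, at 60 min 5 of 10 against 3.49%, and at 2F 60 min 4 of 10 against 1.36%. The members' median log2 change was 0.39, 1.04 and 0.76, beside -0.02, -0.09 and 0.03 over all probe sets tested.

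Klf2 lay at intensities of 67.9, 63.0 and 56.0 before. At 30 min it ranged from 242 to 537 with a median of 417, at 60 min it read 384, 142 and 229, and at 2F 60 min 228, 278 and 342. Every labelled array lay above every array before. The log2 changes were 2.65 ± 0.27 (SE, adjusted p = 1.2e-05), 1.90 ± 0.33 (adjusted p = 0.0014) and 2.17 ± 0.33 (adjusted p = 0.00081) by limma. With the 30 min arrays averaged to 3 sets, the 30 min change was called too.

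Klf10, a TGF-beta target that represses through Sin3, behaved later. It read 234, 287 and 288 before and ranged from 168 to 533 at 30 min with a median of 278, so that these groups overlapped (log2 change 0.15 ± 0.27, adjusted p = 0.87 by limma). At 60 min it read 1505, 2209 and 1350.2, and at 2F 60 min 1185, 1112 and 1115. Both 60 min groups lay wholly above the arrays before, by a log2 change of 2.62 ± 0.34 (adjusted p = 9.9e-05, limma) and 2.08 ± 0.34 (adjusted p = 0.0014, limma).

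Klf9 rose from 1553, 1989.9 and 1676 before to 5325, 4679.9 and 6029 at 60 min and 4559, 3899.6 and 4675 at 2F 60 min. At 30 min it had a median of 2927 (lowest 1707, highest 3999.6) and was not called. The 60 min log2 changes were 1.62 ± 0.28 (adjusted p = 0.0016, limma) and 1.33 ± 0.28 (adjusted p = 0.014, limma), with no overlap. Klf7 rose likewise, from 162, 149.9 and 125 before to 464, 581 and 488 at 60 min and 458, 434 and 439 at 2F 60 min. Its log2 changes were 1.81 ± 0.37 (adjusted p = 0.0039, limma) and 1.61 ± 0.37 (adjusted p = 0.021, limma). The 2F calls of these 2 genes were fragile. Klf9 lost its call without 2F total RNA replicate 1 or 3 or without before replicate 1 or 3, and Klf7 lost its call when any 1 of the 6 arrays of that comparison was left out. Their log2 changes without 1 array stayed between 1.26 and 1.69.

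Klf4 read 1307, 1116 and 1108 before and 2290.4, 3823 and 2451 at 60 min, with no overlap (log2 change 1.24 ± 0.22, adjusted p = 0.0017, limma). Its other probe set (1417395_at) changed by 0.20 ± 0.43 (log2), and with the mean of both probe sets the call was lost (0.72, adjusted p = 0.069, limma). At 2F 60 min it read 1766, 1921 and 1736, also above every array before, but the log2 change of 0.62 ± 0.22 was not called (adjusted p = 0.17, limma).

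The remaining members gave small or split values. Klf3 changed by -0.23, -0.07 and -0.03 (log2) at 30 min, 60 min and 2F 60 min, and its groups overlapped the arrays before at all 3. Klf6, the widely expressed growth suppressor, gave 0.36, -0.19 and 0.56. Klf5 gave 0.43, -0.40 and 0.85, and its 60 min arrays ranged widely (589.7, 123 and 250.1). Klf13 gave 0.32, -0.39 and 0.24. Klf16 gave 0.34, 0.83 and 0.67, with an adjusted p of 0.024 (limma) at 60 min but less than a 2-fold change. Without total RNA replicate 3 at 60 min its change was 1.11 and was called.

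**Figure D2:**
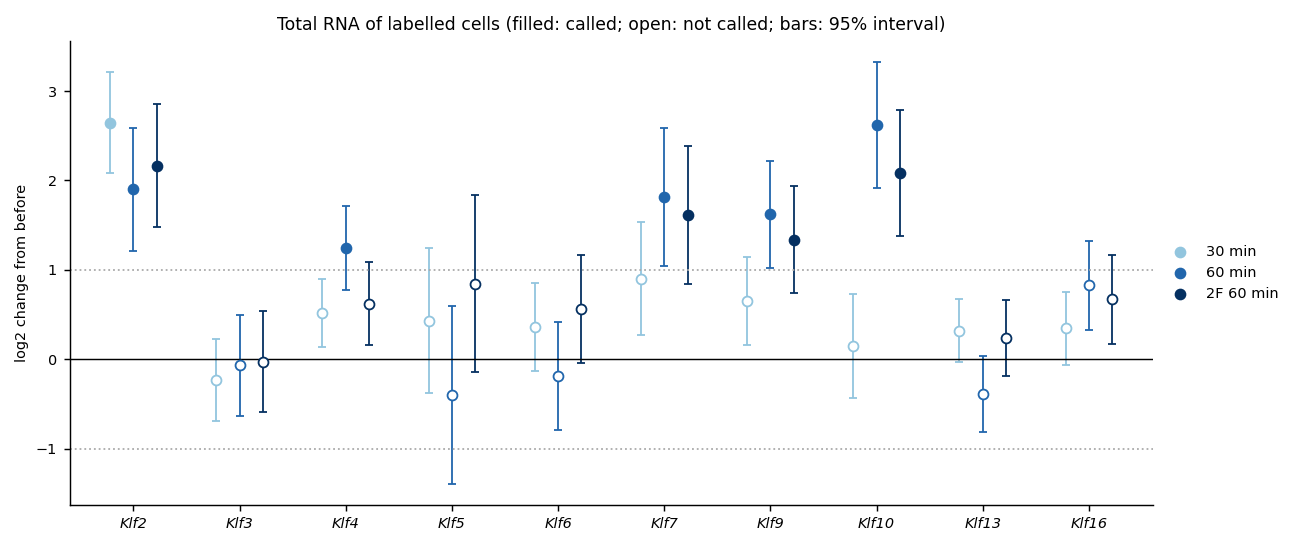
Log2 change of total RNA from before (y axis) for each Krüppel-like factor (x axis) after 30 min, 60 min and 2F 60 min of 4sU. Filled points were called, open points were not, bars are 95% intervals and dotted lines mark a 2-fold change. Klf2 is raised at all 3 times, and Klf4, Klf7, Klf9 and Klf10 are called at 60 min but not at 30 min.

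Under actinomycin D the messages of most members fell within 1 h, and further by 2 h. At 1 h, 5 of the 8 members tested were called lower (Klf3, Klf4, Klf5, Klf6 and Klf10), against 3.58% of all probe sets tested. At 2 h Klf9 joined them, making 6 of 8 against 9.42%. Klf4 fell 7.53-fold by 2 h, and Klf10, whose 2 h arrays lay below intensity 32, fell at least 8.39-fold with those arrays set at 32. Klf7 and Klf13 fell by less than 2-fold at both times. Klf2 and Klf16 were too dim in these arrays to enter the test, whose filter asks for a mean log2 of 5 (intensity 32). The members' median log2 change was -1.16 at 1 h and -2.02 at 2 h, beside 0.09 and 0.10 over all probe sets tested. The drug groups share the arrays before.

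Klf10 went from 234, 287 and 288 before to 93.1, 85.2 and 79.0 at 1 h and 21.0, 27.2 and 11.7 at 2 h. The 3 groups did not overlap, and the 2 h arrays lay below intensity 32, where the scale flattens towards background. The log2 change was -1.65 ± 0.26 at 1 h (SE, adjusted p = 0.0017, limma). At 2 h the fit gave -3.83 ± 0.26 (adjusted p = 3.1e-06, limma), a call whose exact size is not fixed.

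Among the activators, Klf4 read 729.6, 417 and 442 at 1 h and 149, 148 and 172 at 2 h, from 1307, 1116 and 1108 before. Its log2 change was -1.20 ± 0.20 (adjusted p = 0.0021, limma) and then -2.91 ± 0.20 (adjusted p = 3.1e-06, limma). Klf6 went from 365, 457 and 494 to 159, 146 and 171 and then to 53.1, 83.7 and 114, a change of -1.46 ± 0.24 and then -2.45 ± 0.24 (log2). On these probe sets both genes stepped down without overlap between any pair of groups. The second Klf6 probe set (1427742_a_at) ranged from 279 to 309 before and from 271 to 293 at 1 h, which overlapped. For Klf4, 1417395_at overlapped between 1 h (169 to 324) and 2 h (126 to 204). With the mean of its probe sets Klf6 lost its 1 h call (-0.94, log2). Klf5 read 426, 327 and 299.7 before, 170.1, 145 and 135 at 1 h and 129, 84.1 and 65.1 at 2 h, and changed by -1.22 ± 0.23 and -1.96 ± 0.23 (log2).

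Klf3, the CtBP-dependent repressor, fell from 926, 943 and 819 to 429, 411 and 387 and then to 180.5, 229.8 and 224. Its log2 change was -1.13 ± 0.12 (adjusted p = 0.00036, limma) and -2.09 ± 0.12 (adjusted p = 1.3e-06, limma). With the mean of its probe sets the 1 h call was lost (-0.87). Klf9 fell late: it read 1553, 1989.9 and 1676 before, 1031, 1333 and 1275 at 1 h and 504, 543 and 546 at 2 h. The 1 h change of -0.52 ± 0.13 (log2, adjusted p = 0.015, limma) was under 2-fold, and the 2 h change was -1.70 ± 0.13 (adjusted p = 8.5e-06, limma).

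From 1 h to 2 h, Klf4, Klf9 and Klf10 were called lower, 3 of 8 against 7.32% of all probe sets tested, Klf4 by -1.72 ± 0.20, Klf9 by -1.18 ± 0.13 (log2, SE) and Klf10 at least 2.675-fold with its 2 h arrays set at intensity 32. Klf9 lost this call with the mean of its probe sets (-0.86). Klf3 (-0.96 ± 0.12) and Klf6 (-0.99 ± 0.24) fell just short of 2-fold, and the count became 5 without 2 h replicate 2 or without 2 h replicate 3. On their brightest probe sets Klf7 and Klf13 levelled off. Klf7 read 162, 149.9 and 125 before, 129, 77.0 and 75.3 at 1 h and 82.6, 85.1 and 75.6 at 2 h. Klf13 read 143, 123 and 141 before, 104, 76.0 and 69.9 at 1 h and 101, 85.0 and 81.3 at 2 h. For both the 1 h and 2 h groups overlapped (2 h minus 1 h: -0.16 ± 0.20 and 0.11 ± 0.16, log2). On the other Klf7 probe sets the mean log2 fell further from 1 h to 2 h. It went from 6.95 to 6.44 (1419354_at), 6.26 to 5.67 (1419355_at) and 5.98 to 5.29 (1419356_at).

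Klf2 lay at 67.9, 63.0 and 56.0 before, 24.1, 16.2 and 14.2 at 1 h and 8.3, 8.0 and 9.8 at 2 h, without overlap. Without the filter on dim probe sets it changed by -1.81 ± 0.20 and -2.84 ± 0.20 (log2, adjusted p = 0.0017 and 1e-04, limma). These drug values lie below 32, so they set no size. Klf16 read 61.3, 50.1 and 45.1 before, 29.3, 22.5 and 22.7 at 1 h and 37.4, 10.3 and 15.8 at 2 h, lower than before on every drug array.

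Read as an exponential decay from the start, the 2 h change gave a half-life of 41.2 min for Klf4 (95% interval 35.8 to 48.6) and 49.0 min for Klf6 (40.2 to 62.7). Klf3 gave 57.5 min (50.8 to 66.1), Klf5 61.2 min (48.3 to 83.5) and Klf9 70.4 min (59.9 to 85.4). Klf7 gave 143 min (93.4 to 307) and Klf13 198 min (124 to 488). Klf10 has only a bound at 2 h, at most 39.1 min with its arrays set at intensity 32. The 1 h change gave 36.4 min for Klf10, 41.2 min for Klf6, 49.4 min for Klf5, 50.2 min for Klf4 and 53.1 min for Klf3. It gave 115 min for Klf9, 89.0 min for Klf7 and 83.4 min for Klf13, so the estimates of these 3 differed most between 1 h and 2 h among members with both. Neighbouring intervals overlapped from Klf4 through Klf9. On the brightest probe sets, the intervals of Klf7 and Klf13 lay above those of the other 5 members with a value at 2 h. Other probe sets would give other half-lives. From before to 2 h the mean log2 of 1417395_at (Klf4) went from 9.05 to 7.37, and that of 1429360_at (Klf3) from 7.97 to 6.84. Both fell less than the brightest probe set of their gene, while 1428288_at (Klf9) fell more. The value rests on the assumption that the drug stops transcription at once and that array levels are in proportion to RNA.

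**Figure D3:**
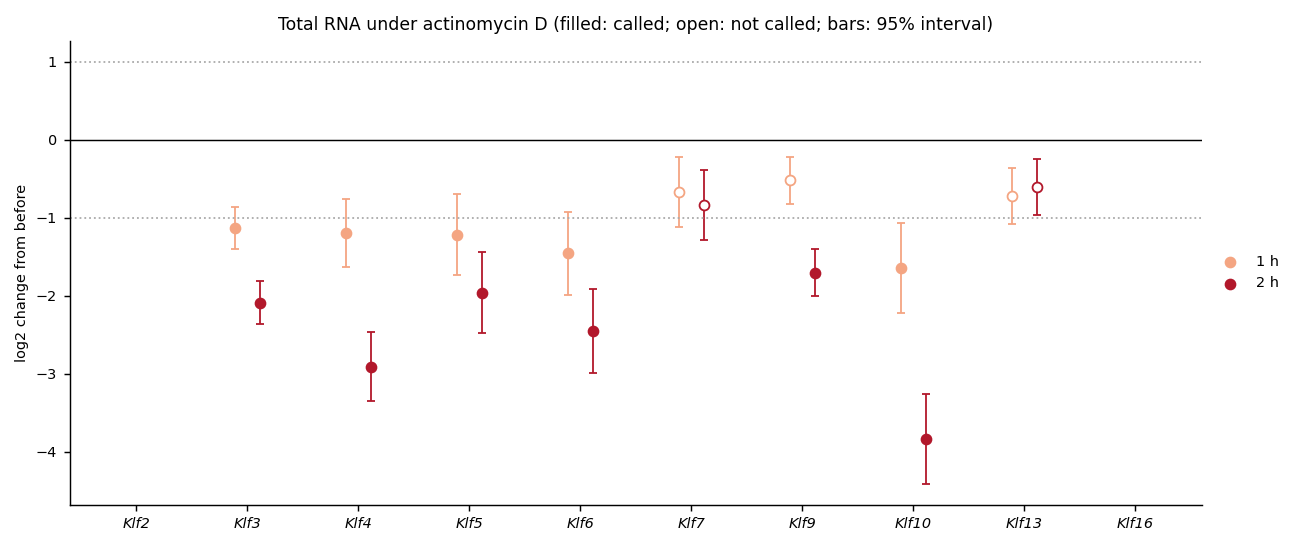
Log2 change of total RNA from before (y axis) after 1 h and 2 h of actinomycin D for each Krüppel-like factor (x axis). Filled points were called, open points were not, and bars are 95% intervals. Klf2 and Klf16 were too dim to be tested, the 2 h point of Klf10 rests on arrays below intensity 32, and Klf7 and Klf13 stay above -1.

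New RNA held more of the family's messages than total RNA at every time measured. At 30 min 9 of 10 members were called higher in new RNA, against 23.7% of all probe sets tested. At 60 min 9 of 10 were, against 17.7%, and at 2F 60 min 10 of 10, against 24%. The members' median log2 difference was 2.05, 2.22 and 2.21, beside -0.14, -0.14 and 0.04 over all probe sets tested. These are differences between fractions that were normalized as if they held equal RNA, so a value tells how a message stands against the average message and not what share of it was new.

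Klf6, at 30 min, ranged from 344 to 714 in total RNA (median 629.9) and from 4056 to 7332 in new RNA (median 6172). Klf10 ranged from 168 to 533 (median 278) and from 1507 to 3537 (median 2167). Neither gene's groups overlapped. The differences were 3.40 ± 0.15 (log2, SE, adjusted p = 1e-13, limma) and 3.00 ± 0.22 (adjusted p = 1.7e-10, limma). Averaged to 3 sets, they carried adjusted p-values of 1e-04 and 4e-04 (limma).

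Klf2 spread most among the new RNA arrays at 30 min, from 798 to 6432 with a median of 2078. Its difference from total RNA was 2.54 ± 0.37, and by set it was 3.56, 1.95 and 2.10 (log2). Klf9 gave 2.51 ± 0.16, Klf7 2.10 ± 0.22, Klf4 2.01 ± 0.20, Klf3 1.80 ± 0.17, Klf13 1.503 ± 0.143 and Klf5 1.41 ± 0.28. All of these had no overlap between new and total RNA, and the same 9 members were called with each set as 1 sample. The shares of all probe sets without overlap, or called with each set as 1 sample, were not counted. Klf5 differed by set, with 1.93, 1.81 and 0.50. Klf16 was the exception: it overlapped, differed by 0.79 ± 0.31 (adjusted p = 0.023, limma) and gave 1.78, 0.91 and -0.31 by set.

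**Figure D4:**
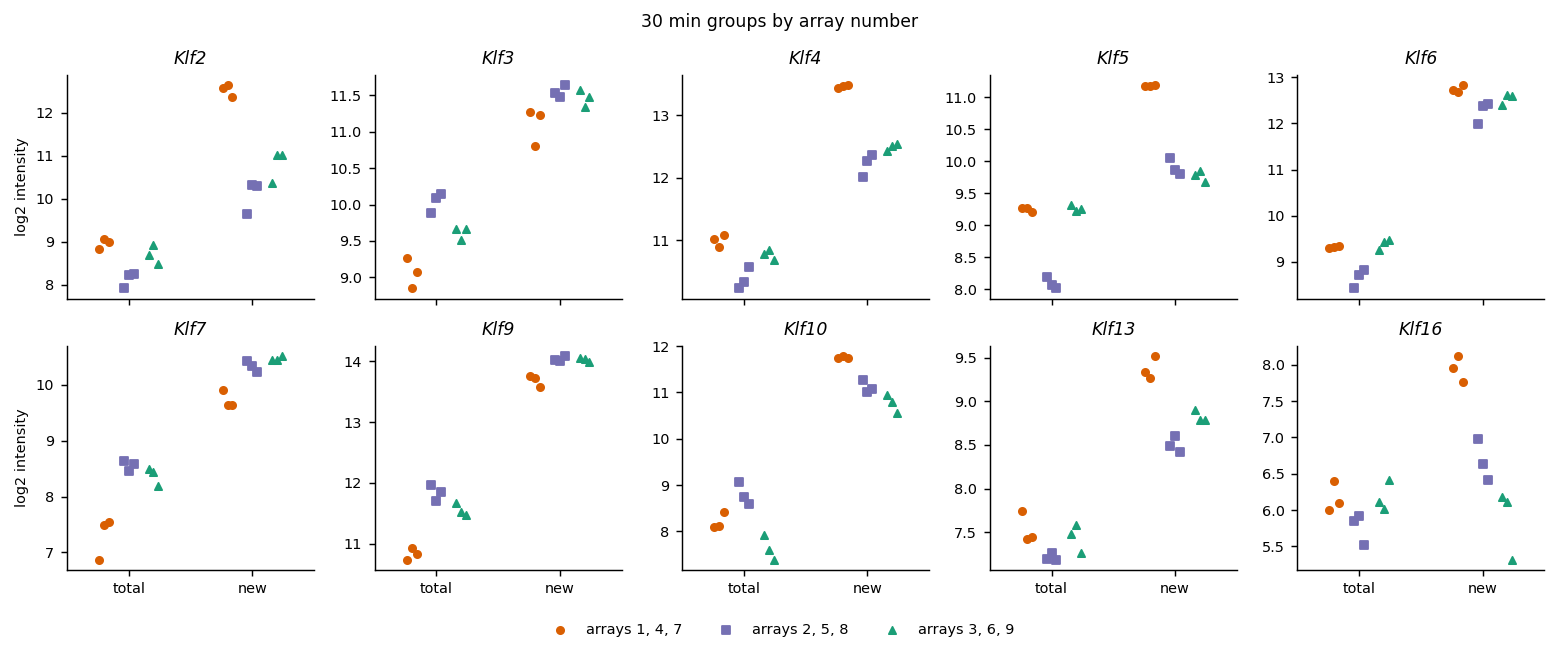
Log2 intensity (y axis) of each Krüppel-like factor in total and new RNA at 30 min (x axis), 1 point per array, with colour and shape giving the set by array number. Every member but Klf16 keeps new and total RNA apart in all 3 sets, and the gap differs most between sets for Klf16, Klf2 and Klf5. The share of all probe sets kept apart was not counted.

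At 60 min Klf5 read 589.7, 123 and 250.1 in total RNA and 4694, 2155 and 2291 in new RNA, a difference of 3.44 ± 0.52 (log2, SE, adjusted p = 7e-04, limma). Klf13 read 154, 85.9 and 82.9 and then 2641, 773 and 525.6, a difference of 3.31 ± 0.53 (adjusted p = 0.00088, limma). The first new RNA array stands above the others for both genes. Klf6 (3.28 ± 0.33), Klf2 (3.25 ± 0.39), Klf10 (2.35 ± 0.26), Klf9 (2.08 ± 0.23), Klf7 (2.05 ± 0.29), Klf16 (1.72 ± 0.28) and Klf4 (1.37 ± 0.30) were called as well. Klf3 was not (0.84 ± 0.56, adjusted p = 0.24, limma). Its new RNA arrays read 505, 2782 and 2545, the first of them below the total RNA arrays of 765, 897 and 902. Without that array the difference was 1.64 and was called.

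The arrays at 2F 60 min were tighter, with SE between 0.08 and 0.31. Klf5 read 682, 589.7 and 603 in total and 3482, 3644 and 4038 in new RNA there (2.57 ± 0.10, log2). Klf10 gave 2.37 ± 0.09, Klf7 2.36 ± 0.08, Klf13 2.30 ± 0.10, Klf9 2.25 ± 0.10 and Klf6 2.18 ± 0.14. Klf4 gave 1.88 ± 0.09, Klf2 1.84 ± 0.31, Klf3 1.57 ± 0.10 and Klf16 1.44 ± 0.12, so Klf16, the dopamine receptor regulator, had the smallest difference in this experiment.

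Whether the excess in new RNA differed between experiments was tested as an interaction. From 30 min to 60 min it grew for Klf5 by 2.03 ± 0.57 (log2, adjusted p = 0.0098, limma) and for Klf13 by 1.81 ± 0.42 (adjusted p = 0.0025, limma), 2 of 10 members against 10.3% of all probe sets tested. From 30 min to 2F 60 min it shrank for Klf6 by -1.22 ± 0.31 (adjusted p = 0.021, limma), 1 of 10 members against 2.19%. None of the 3 was called with the 30 min arrays as 3 sets (adjusted p = 0.086, 0.077 and 0.24, limma). Klf13 moved to 1.13 without new RNA replicate 1 at 60 min and was still called. Klf5 lost its call without new RNA replicate 1 or total RNA replicate 2 at 60 min, and Klf6 lost it without 2F new RNA replicate 1 or 3 or 2F total RNA replicate 2 or 3.

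Pre-existing RNA held less of 4 members than total RNA at 60 min. Klf10, Klf7, Klf9 and Klf4 were called lower, 4 of 10 against 6.96% of all probe sets tested, and the members' median log2 difference was -0.94 beside 0.11. The total RNA arrays are those of the comparison with before, in which all 4 were called higher. Klf10 read 334, 288 and 333 in pre-existing RNA and 1505, 2209 and 1350.2 in total RNA (-2.38 ± 0.26, log2, SE, adjusted p = 0.00023, limma). Klf7 read 71.8, 128 and 109 and 464, 581 and 488 (-2.35 ± 0.29, adjusted p = 0.00046, limma). Neither gene overlapped between the fractions. Klf9 differed by -1.56 ± 0.23 (adjusted p = 0.0015, limma) and Klf4 by -1.55 ± 0.30 (adjusted p = 0.0085, limma). With the mean of their probe sets Klf9 (-0.88) and Klf4 (-0.80) lost these calls. The other Klf4 probe set (1417395_at) had a mean log2 of 9.20 in pre-existing and 9.25 in total RNA.

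Klf6 read 153, 187 and 236 in pre-existing RNA and 398, 259 and 539.5 in total RNA, which did not overlap, but the difference of -1.01 ± 0.33 missed the threshold (adjusted p = 0.087, limma). Without total RNA replicate 2 it was -1.29 and was called. Klf3 gave -0.88 ± 0.56, Klf16 -0.57 ± 0.28, Klf2 -0.27 ± 0.39, Klf5 0.32 ± 0.52 and Klf13 0.39 ± 0.53, none of them called. Set instead against the tighter total RNA of 2F 60 min, pre-existing RNA was lower for Klf7 (-2.15 ± 0.21), Klf10 (-1.84 ± 0.09), Klf6 (-1.77 ± 0.19) and Klf9 (-1.27 ± 0.13), 4 of 10 against 3.7% of all probe sets tested. That comparison crosses experiments and was added after seeing the data. Against pre-existing RNA, new RNA at 60 min was higher for 10 of 10 members against 22.3%, from 1.72 ± 0.56 for Klf3 to 4.73 ± 0.26 for Klf10 (log2, SE).

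**Figure D5:**
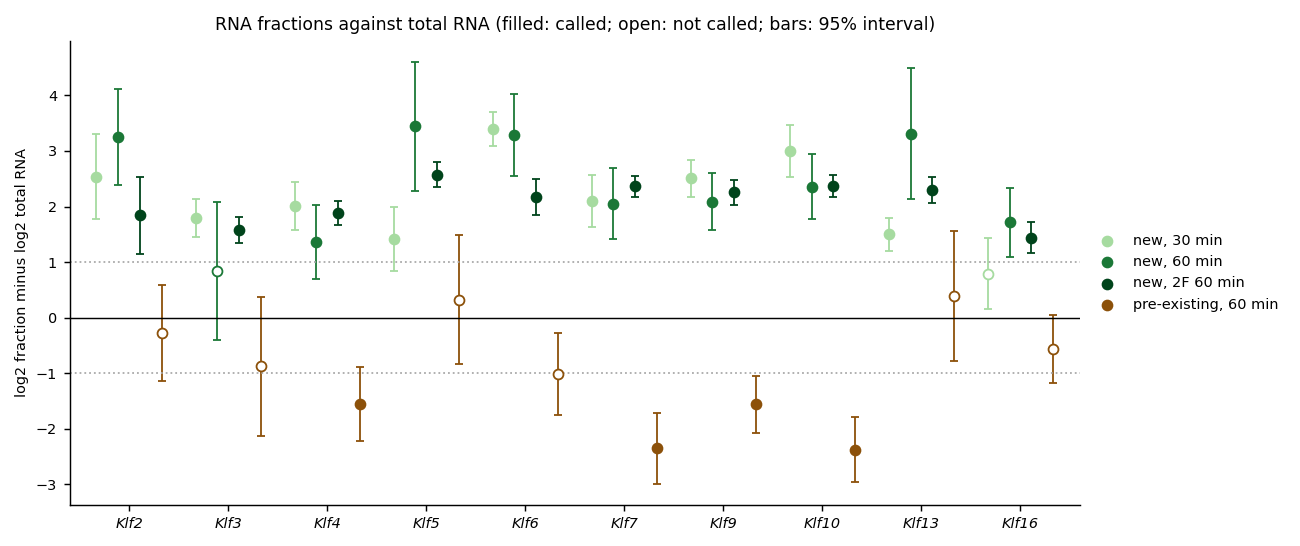
Log2 difference from total RNA (y axis) of new RNA at 30 min, 60 min and 2F 60 min and of pre-existing RNA at 60 min, for each Krüppel-like factor (x axis). Filled points were called, open points were not, and bars are 95% intervals. New RNA lies above 0 for every member. On the brightest probe sets, which are shown, pre-existing RNA lies below -1.5 for Klf4, Klf7, Klf9 and Klf10.

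Among the new RNA groups, which share the 30 min arrays, the brightest probe sets of the members differed in when their signal was highest. At 15 min 5 of 10 were called lower than at 30 min (7.59% of all probe sets tested): Klf10 by -2.14 ± 0.26, Klf2 by -1.86 ± 0.55, Klf5 by -1.39 ± 0.36, Klf4 by -1.37 ± 0.29 (log2, SE), and Klf16. Klf2 lost its call without 15 min replicate 3 (-1.68). Klf16 at 15 min read 26.59, 45.05 and 12.72, with 2 arrays below intensity 32, and overlapped the 30 min arrays, the lowest of which read 39.9. Set at 32, it was at least 3.17-fold lower. Klf5 lost its call with the mean of its probe sets (-0.43). At 60 min 4 of 10 were called higher than at 30 min (5.23%): Klf10 by 1.83 ± 0.26, Klf16 by 1.41 ± 0.48, Klf5 by 1.19 ± 0.36 and Klf13 by 1.10 ± 0.34. With the replicate number as a block, 2 of these 4 calls were left, and Klf13 (adjusted p = 0.10, limma) and Klf16 (adjusted p = 0.076, limma) were lost. Without new RNA replicate 1 at 60 min, 1 of the 4 was left (Klf10). With the 30 min arrays as 3 sets, Klf13 and Klf16 were lost, and Klf16 was also lost without any 1 of the 60 min arrays.

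Klf10 gives the clearest course. It read 572, 765 and 356 at 15 min, 1507 to 3537 at 30 min, 8028, 10007 and 7439.8 at 60 min and 5642, 5704 and 6289 at 2F 60 min. The 15 min, 30 min and both 60 min groups did not overlap one another. Klf6 ran the other way at 2F 60 min. It read 3631, 3954 and 2581 at 15 min, 4056 to 7332 at 30 min, 2797, 4140.4 and 4407 at 60 min and 2516, 3273 and 2986 at 2F 60 min. The last was lower than 30 min by -1.01 ± 0.19 (log2, adjusted p = 0.00096, limma), 1 of 10 members against 7.16%, and this call was lost without 2F new RNA replicate 1 (-0.91) and with quantile normalization (-0.98).

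At 2F 60 min, Klf5 (1.58 ± 0.36) and Klf10 (1.30 ± 0.26) were called higher than at 30 min, 2 of 10 against 3.69%, and Klf5 lost this call with the mean of its probe sets (0.78). Klf9 differed by less than 2-fold from its 30 min level at each other time, and read 10950.1, 11187 and 10113 at 15 min, 12173 to 17431 at 30 min, 22316, 21928 and 23383 at 60 min. Those groups did not overlap. The dose of 4sU differed between 30 min and 60 min (500 µM and 200 µM), so time and dose cannot be told apart in these comparisons.

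The other 22 probe sets of these genes were mostly dimmer. In new against total RNA, 19 of 20 tested were called higher at 30 min, 18 of 19 at 60 min and 19 of 19 at 2F 60 min. Over all probe sets tested the shares were 23.7%, 17.7% and 24%. At 30 min some of these probe sets passed the filter only through new RNA. They were 1442920_at of Klf3 (mean log2 7.03 in new and 3.88 in total RNA), 1441200_at of Klf3 (7.84 and 4.66) and 1451739_at of Klf5 (8.05 and 4.67). A probe set that dim in total RNA could be tested only if new RNA was higher, so these counts lean towards higher. Under actinomycin D, 3 of 14 were called lower at 1 h (3.58% of all) and 9 of 14 at 2 h (9.42%). In total RNA against before, 1, 2 and 3 of 16 were called higher at 30 min, 60 min and 2F 60 min. The shares of all were 0.544%, 3.49% and 1.36%. Probe sets of 1 gene differed in places. For Klf5 the second probe set (1451739_at) was lower in pre-existing than in total RNA by -2.51 ± 0.24 (log2, adjusted p = 1e-04, limma), where the brighter one (1451021_a_at) gave 0.32. The size for 1451739_at is not fixed, because its mean log2 in pre-existing RNA was 2.75, below the filter level of 5. Its mean log2 in total RNA at 60 min was 5.25, and only new RNA (7.55) brought this probe set past the filter. For Klf6, 1418280_at rose in total RNA at 30 min by 1.22 ± 0.21 (adjusted p = 0.0055, limma) and at 2F 60 min by 1.60 ± 0.26 (adjusted p = 0.0017, limma), where the brightest (1433508_at) gave 0.36 and 0.56. For Klf9, 1428288_at fell by 3.49 ± 0.17 (log2) after 2 h of the drug, against 1.70 on the brightest (1456341_a_at). The time course in new RNA differed between probe sets too. Of the 20 others tested, 2 were lower (7.59% of all probe sets tested) and 1 higher at 15 min than at 30 min. At 60 min 3 were lower and 1 higher (5.23%), and at 2F 60 min 6 lower (7.16%) and 1 higher (3.69%). The counts with a share lay near it, apart from the 6 lower at 2F 60 min. The 1 higher at 15 min and the 3 lower at 60 min have no share beside them and are not weighed. For Klf3, 1441200_at was higher at 15 min than at 30 min by 1.07 ± 0.25 (log2, adjusted p = 0.0028, limma) and lower at 60 min by -1.17 ± 0.25 (adjusted p = 0.0016, limma), where the brightest (1454666_at) gave -0.28 and -0.79. For Klf5, 1451739_at gave 0.52 and -0.50, not called, where the brighter gave -1.39 and 1.19. Which probe set follows the whole message was not tested.

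Among related genes, few of the rest of the family could be read: 8 of 16 other KLF and SP genes were on the arrays, and 3 were tested under actinomycin D. Of these, 0 were called by limma at 1 h or 2 h (1 and 1 had an unadjusted p below 0.05), where 5 and 6 of the 8 members were. In new RNA at 30 min, 2 of 3 were called higher, against 23.7% of all probe sets tested. Sp3 was higher by 1.40 ± 0.18 and Sp1, which binds the same GC boxes, by 1.29 ± 0.15 (log2, SE). The serum-response and immediate-early factors resembled the members in new RNA, with 16 of 17 called higher at 30 min and a median of 2.27 (log2). Under the drug 8 of 14 were lower at each time, against 3.58% and 9.42% of all probe sets tested. Myc changed by -3.16 ± 0.19 at 1 h and -5.38 ± 0.19 at 2 h. In total RNA at 30 min, 9 of 16 immediate-early factors were called higher (Fos by 4.92 ± 0.15, Egr2 by 4.16 ± 0.38). Of the 10 members, Klf2 alone was called on the brightest probe sets, and 4 had an unadjusted p below 0.05 (limma). At 60 min 8 of 16 immediate-early factors were called higher, and at 2F 60 min 11 of 16. Over all probe sets tested the shares at 30 min, 60 min and 2F 60 min were 0.544%, 3.49% and 1.36%.

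The partners and regulators of the family, such as corepressors and ubiquitin ligases, moved less. By limma 0 of 17 were called under the drug at 1 h (8 had an unadjusted p below 0.05). At 2 h 5 were lower, against 9.42% of all probe sets tested. Among them were the corepressor Sin3a (-1.94 ± 0.18) and the coactivator Ep300 (-1.75 ± 0.14, log2, SE). In new RNA at 30 min 3 were higher, against 23.7% of all probe sets tested. Among them were Fbxw7, a ubiquitin ligase subunit that targets Klf2 and Klf5 (1.69 ± 0.14), and the transcription factor Mef2d (1.25 ± 0.14). Another 3 were lower, among them Sin3b by -1.99 ± 0.10 and Hdac3 by -1.07 ± 0.10, against 25.6% of all probe sets tested. As shares of the 17, both counts in new RNA lay below those of all probe sets tested. The difference between the lists and the members was not tested.

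Ordered by group mean, the 3 highest groups were new RNA and the 2 lowest actinomycin D for all 10 members. How many other probe sets have this order was not counted, so it is not read as particular to the family. The 2 h group lay lowest for 9 of them and the 1 h group for Klf13, where the drug times overlapped. New RNA at 15 min lay below total RNA at 60 min for Klf4, Klf10 and Klf16. Neighbouring groups in that order often overlapped in single arrays: 9 of the 10 neighbour pairs did for Klf3, 8 for Klf16, 7 for Klf5, Klf6 and Klf13, 6 for Klf2 and Klf7, 5 for Klf4, and 3 for Klf9 and Klf10. Over the 11 group means the members' profiles correlated with one another from 0.624 (Klf3 with Klf16) to 0.979 (Klf7 with Klf9). The 11 points share the RNA fractions and are no independent samples. Of 5421 genes compared, the closest to Klf2 were Rhob (r = 0.989) and Dusp5 (0.986), to Klf4 Bcl6 (0.994) and Akap13 (0.992), to Klf5 Tjap1 and Nab2 (0.986), and to Klf6 Hnrnpa1 (0.992) and Ccnl1 (0.990). For Klf7 they were Clcf1 (0.983) and Zfp36l1 (0.981), and for Klf3 Atad2b and Zfp719 (both 0.987). Among the Sin3-binding members they were Zfp715 (0.991) and Pdk4 (0.990) for Klf9, Noct (0.990) and Bhlhe40 (0.988) for Klf10, Apbb2 (0.990) and Kansl3 (0.989) for Klf13, and Grwd1 (0.983) and Atp2a2 (0.973) for Klf16.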

How the data were processed

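RNA of NIH-3T3 cells was extracted with Trizol and hybridised to Affymetrix arrays after one-cycle labelling, per the labels. The authors deposited intensity values on a linear scale, made with GCRMA (version not given in the sources used here), as the submitters' processing notes say. GCRMA subtracts an estimated background and normalizes between arrays, so dim values are compressed and fractions of unequal RNA are set level. Log2 was taken here. Of 31451 probe sets, 61 controls were left out. Groups were fitted in limma 3.58.1 (R 4.3.3, lmFit then eBayes), keeping probe sets whose log2 averaged at least 5 over each fit's arrays. Some fits joined experiments: all total RNA groups without the drug, all new RNA groups, and new with total RNA for the interaction. Each SE therefore carries the spread of every array in its fit. A call required an adjusted p (Benjamini-Hochberg, every tested probe set) under 0.05 together with an absolute log2 change of 1. Precision is limited by the number of arrays. The fit was tested on simulated data. Members, gene lists and probe-set rules were chosen with earlier results of these data known. Other genes named are up to 2 of each list with the largest called change, and the 2 genes with the highest correlation to each member over group means. Alternatives were quantile normalization, other filters on dim probe sets, the mean of a gene's probe sets, leaving out each array of the 3-array groups, and the replicate number as a block. The averaging of the 30 min arrays to 3 sets and 2 other comparators for the 60 min fractions were added after seeing the data. Same-numbered arrays deviated together (correlation of their deviations over 0.1 in every pair) for both drug times, for new and for pre-existing against total RNA at 60 min, for new RNA at 60 min against 30 min and for total RNA at 60 min against before.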

Additional observations from a re-analysis of the deposited data

Results flagged for a closer look

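The excess of new over total RNA differed between experiments, by an interaction term in limma, for 3 members. For Klf5 it was larger at 60 min than at 30 min by 2.03 (log2). For Klf13 it was larger by 1.81. For Klf6 it was smaller at 2F 60 min than at 30 min (-1.22). None of the 3 differences was called when the 30 min arrays were averaged to 3 sets.

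Klf3 in new RNA at 30 min had 1 low array, 1782, whose gap to the next was 0.51 of the range of the 9 arrays, above the 95% critical value of Dixon's test for a group of 9. Of 20 groups of 9 arrays checked, chance marks about 1 in 20.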

How the results depend on the processing

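Of the 778 values of called members recomputed under alternatives, 732 kept their direction and their call, 46 lost the call and 0 changed direction. Averaging a gene's probe sets left 3 of 5 calls for 1 h of the drug, 2 of 4 for pre-existing against total RNA, 2 of 4 for new RNA at 60 min against 30 min and 1 of 2 for the change of excess at 60 min. It also ended the calls of Klf4 in total RNA at 60 min (0.72), Klf9 at 2 h against 1 h of the drug (-0.86), and Klf5 in new RNA at 15 min (-0.43) and 2F 60 min (0.78) against 30 min. It turned pre-existing against total RNA to -1.09 for Klf5 and -0.067 for Klf13, and total RNA of Klf3 at 30 min to 0.11. The Klf5 value draws on 1451739_at, which was too dim in pre-existing RNA to fix a size. With the 30 min arrays as 3 sets, new RNA at 60 min against 30 min gave 2 calls and both changes of excess gave 0. Leaving out 1 array gave 3 to 5 calls for 2 h against 1 h of the drug, 1 to 5 for new RNA at 60 min against 30 min, 2 to 3 for total RNA at 2F 60 min, 1 to 3 for the change of excess at 60 min and 0 to 1 at 2F 60 min. It moved uncalled values across 0: pre-existing against total RNA for Klf2 (-0.63 to 0.093) and Klf5 (-0.23 to 0.91), total RNA at 60 min for Klf3 (-0.13 to 0.008), Klf5 (-0.98 to 0.15) and Klf6 (-0.44 to 0.091), and at 2F 60 min for Klf3 (-0.093 to 0.0097).

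The replicate number as a block left 2 calls for new RNA at 60 min against 30 min. Same-numbered arrays deviated together there, but no label pairs them. Some other comparisons did not have this in every pair. Among those, Klf2 at 15 min (-1.58) and Klf6 at 2F 60 min (-0.86) in new RNA lost their calls under the block. Klf7 in total RNA at 2F 60 min did too (adjusted p = 0.051, limma). No other call of a member ended with the block. Quantile normalization moved the median of all probe sets by about 0.1 for pre-existing against total RNA (0.11 to 0.01). Half-lives computed from the 60 min label moved with single arrays (Klf10 from 63.0 to 1402 min around 271) and are not used. The causes were not tested.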

Other observations

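Klf2 read 149, 198 and 239 in pre-existing RNA at 60 min, above its 67.9, 63.0 and 56.0 in total RNA before, and Klf10 read 334, 288 and 333 against 234, 287 and 288. For Klf2 the groups did not overlap. No test between these groups was planned, and the fractions were normalized as if they held equal RNA.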
